A study of Mus musculus with 16 samples.

Results

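The alpha- and gamma-tubulin isotypes described here are 5 alpha genes (Tuba1a, Tuba1b, Tuba1c, Tuba4a and Tuba8) and 2 gamma genes (Tubg1 and Tubg2), 7 of the 53801 genes counted. They were chosen by gene symbol, not by their values, and all 7 passed the filter on low counts in both tissues. To ask how the loss of Trrap, a cofactor shared by histone acetyltransferase complexes, alters transcription in the forebrain, RNA of whole cortices and striata of C57BL6/J-129sv mice aged 10 days was sequenced in 16 libraries from 9 mice, 4 libraries per tissue and genotype. Trrap-FBΔ mice (57, 59, 60 and 61, both tissues of each) were Trrap Fl/Fl and carried the Camk2-Cre transgene. Control mice (55, 58, 63 and 64 for the cortex and 58, 63, 64 and 65 for the striatum) were Trrap Fl/+ and carried the same transgene, so the 2 groups differ by 1 floxed allele and share the Cre. The study describes this Cre as acting in pyramidal neurons of the forebrain. Whole-tissue RNA therefore also holds cells that keep Trrap, and in such bulk samples fewer cells of a type and less RNA per cell cannot be told apart.

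Microtubules are polymers of dimers of alpha- and beta-tubulin, and gamma-tubulin, within a ring complex, templates their assembly. Several genes encode nearly the same alpha-tubulin, and the isotypes differ mostly in the C-terminal tail, where tyrosine is removed and added back and where glutamates are attached. Tuba1a is known as the main alpha-tubulin of growing neurons, Tuba4a as the isotype encoded without the last tyrosine, Tubg1 as the gamma-tubulin of most cells and Tubg2 as a second one found chiefly in the brain.

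The last 60 coding bases of both gamma genes, which end with the stop codon, are shown because the 2 genes are near copies that parted in these data. They are from GENCODE M21 on GRCm38 and lie within one exon in each gene, at chr11:101126170-101126229 (plus strand, Tubg1) and chr11:101161543-101161602 (plus strand, Tubg2). Capitals mark the bases of Tubg2 that differ from Tubg1 in an alignment of the whole coding sequences.
Tubg1: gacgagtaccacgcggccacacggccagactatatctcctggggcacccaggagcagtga
Tubg2: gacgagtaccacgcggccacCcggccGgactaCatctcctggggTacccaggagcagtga
Tubg2 differed from Tubg1 at 4 of these bases. Over the whole coding sequence Tuba1a was 98.3% identical to Tuba1b, 97.1% to Tuba1c, 84.7% to Tuba4a and 79.2% to Tuba8, while Tubg1 and Tubg2 were 93.3% identical. This likeness limits what could be counted, since the reads were 51 bases long and the authors kept those that mapped to 1 place. Of all 51-base windows of the transcript, 24.6% in Tuba1a, 17.1% in Tuba1b and 39.2% in Tuba1c occurred in no transcript of another gene that could take the read, against 99.0% in Tuba4a, 99.9% in Tuba8, 86.4% in Tubg1 and 86.1% in Tubg2. Within the coding sequence these windows made up 6.36% in Tuba1a, 4.44% in Tuba1b and 9.62% in Tuba1c. The counts of these 3 genes thus come largely from the ends of the transcript and their split between near-identical copies is uncertain. The gene model Gm49450, which lies over Tuba1a and Tuba1b on the same strand, had 0 counts in every library. It shared 671 windows with Tuba1a and 628 with Tuba1b. The methods do not state how reads over 2 genes were handled, so the 0 does not show that none were lost. The levels and shares of Tuba1a and Tuba1b may be too low for this reason, which was not tested.

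Between 28743866 and 48761429 reads were counted per library. Trrap itself was at 136 to 173 CPM (counts scaled by TMM to a common library size, per 1000000 reads) in the control and 121 to 146 in the Trrap-FBΔ cortices, and at 140 to 151 and 135 to 148 in the striata, so the groups overlapped, with reads counted over the whole gene, deleted part or not. The 6 cortical excitatory markers summed to 1440 to 1830 CPM in the control and 1600 to 1730 in the Trrap-FBΔ cortices. In the striata they summed to 322 to 544 CPM in control and 218 to 325 in Trrap-FBΔ mice. The part of this difference in the striatal genotype effects of isotypes higher in the cortex, such as Tuba1a and Tuba4a, was not tested. The 6 striatal projection markers did not set the libraries labelled striatum apart (79.9 to 606 CPM, against 129 to 379 in the cortices). In mice 58, 63, 60 and 61 their sum was higher in the cortex than in the striatum. The cortices of these mice had 357, 379, 232 and 237 CPM and the striata 79.9, 238, 176 and 197. The reverse held in mice 57, 59 and 64, with 169, 170 and 137 CPM in the cortices against 301, 185 and 606. The control striatum of mouse 58 had the lowest sum of striatal markers, 79.9 CPM, and the highest sum of oligodendrocyte markers, 9340 CPM against 3150 to 6930 in the other control striata. Without it, the same numbers of isotypes were called in the striatum, 2 higher and 3 lower, and the values of the isotypes without it are given beside the striatal results. Levels per length, the gene lists and the markers are given with it. Leaving it out does not set the other striata apart from the cortices by the striatal markers.

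In the Trrap-FBΔ cortex Tuba1a, Tuba1b and Tuba4a fell and Tuba8 and Tubg2 rose, and the same genes changed in the same directions in the striatum. Tuba1c and Tubg1 did not pass the test in either tissue. Of the 7 isotypes, 3 were lower and 2 higher in the cortex, where 33.3% of all 18268 genes tested were called (17.6% lower and 15.7% higher), and 3 lower and 2 higher in the striatum, where 30.2% of 18872 were called (15.8% lower and 14.4% higher). The isotypes had a median log2 fold change of -0.25 (cortex) and -0.16 (striatum), against 0.0010 and -0.0055 over all genes. Groups did not overlap for 4 of the 7 isotypes in cortices and 5 of the 7 in striata, as they did not for 32.7% and 31.6% of all genes. All calls here are from the quasi-likelihood test of edgeR with Benjamini-Hochberg adjustment over all genes tested. For single values the exact permutation test of 4 mice against 4, 2-sided, cannot give a p below 0.029.

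**Figure D1:**
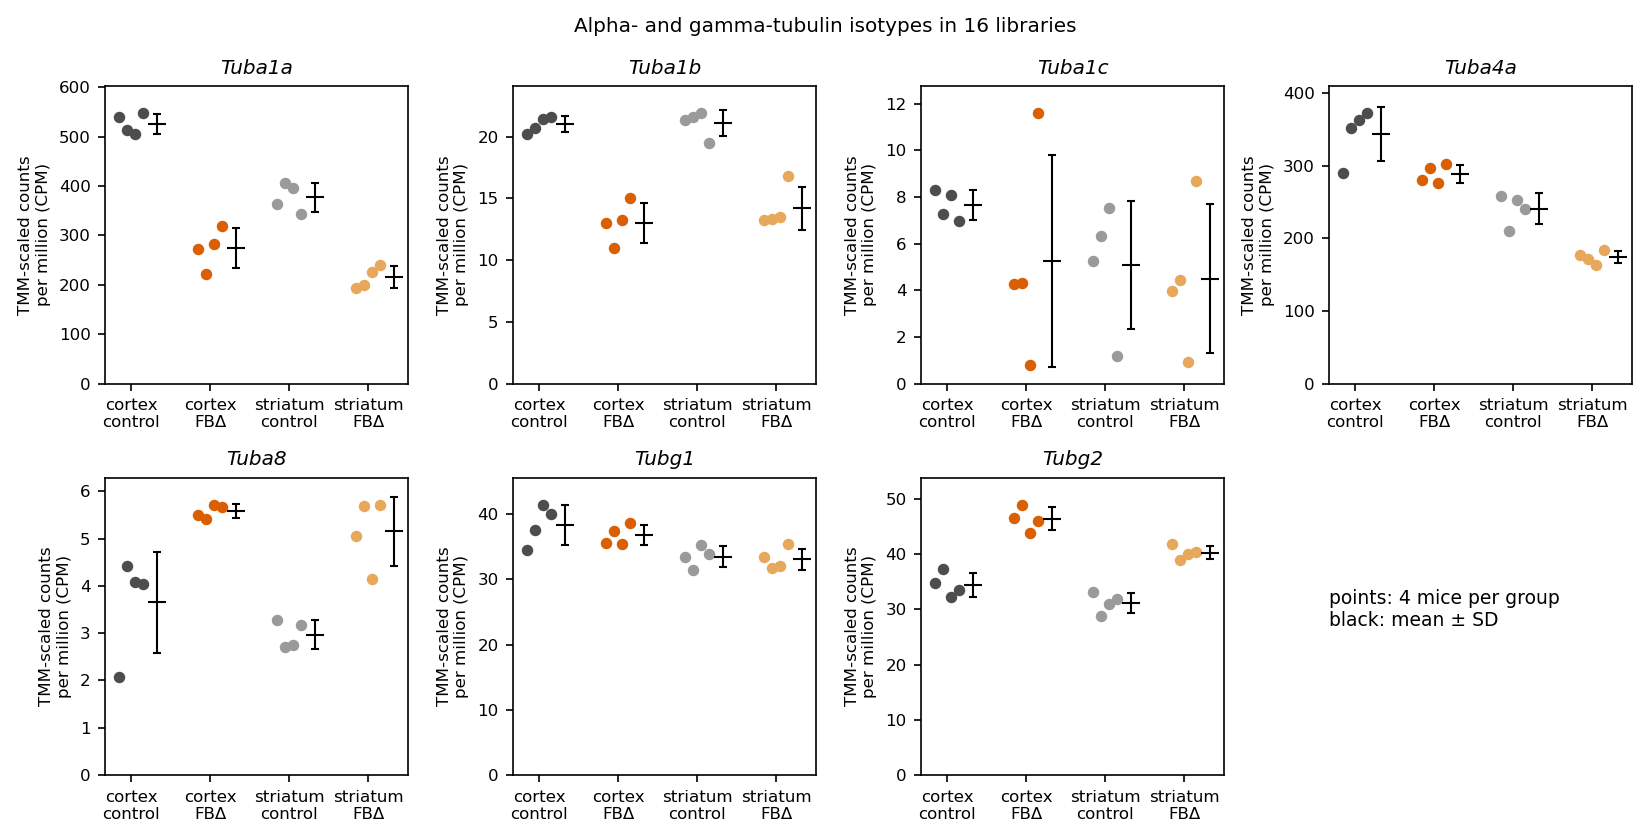
TMM-scaled CPM (y axis, starting at 0) of the 7 isotypes in each library, by tissue and genotype (x axis); each point is 1 mouse and the black marks are mean ± SD of 4 mice. The Trrap-FBΔ points lie below the controls for Tuba1a and Tuba1b and above them for Tuba8 and Tubg2 in both tissues, while those of Tuba1c spread from 0.81 to 11.6 CPM.

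Tuba1a, on chromosome 15 (98949837 to 98953703, minus strand), was counted at 539, 513, 505 and 548 CPM in the control cortices of mice 55, 58, 63 and 64. In the Trrap-FBΔ cortices of mice 57, 59, 60 and 61 it was at 272, 221, 282 and 319 CPM. All 4 mutant values were below the lowest control, and the mean fell from 526 ± 20.5 to 274 ± 40.5 CPM (SD, n = 4 and 4, exact permutation p = 0.029). The log2 fold change was -0.95 ± 0.093 (SE; edgeR quasi-likelihood test, Benjamini-Hochberg adjusted p = 4.9e-05), a loss of 48% of the counts. Controls of the striatum held less of it than those of the cortex, 363, 406, 396 and 344 CPM in mice 58, 63, 64 and 65. The Trrap-FBΔ striata had 193, 200, 225 and 241 CPM, again with no overlap, and the log2 fold change was -0.81 ± 0.082 (edgeR adjusted p = 0.00019). Without the control striatum of mouse 58 it was -0.83.

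Tuba1b, a neighbour of Tuba1a on the same strand (chromosome 15, 98931425 to 98934565) that is expressed in dividing as well as resting cells, moved alike at a lower count. The control cortices had 20.2, 20.7, 21.4 and 21.6 CPM and the Trrap-FBΔ cortices 13, 11, 13.2 and 15 CPM. The groups were well apart, and the log2 fold change was -0.69 ± 0.084 (edgeR adjusted p = 0.00018). The control striata had 21.3, 21.6, 21.9 and 19.5 CPM and the Trrap-FBΔ striata 13.2, 13.3, 13.5 and 16.8 CPM, with the highest mutant value, that of mouse 61, still under every control. The striatal log2 fold change was -0.57 ± 0.086 (edgeR adjusted p = 0.0012) and -0.56 without the control striatum of mouse 58. Mouse 61 also had the highest Tuba1a of the Trrap-FBΔ mice in both tissues.

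Tuba4a, on chromosome 1 (75214228 to 75219865, minus strand), is the alpha isotype of mature tissues, brain and muscle among them. It was at 290, 352, 363 and 373 CPM in the control and 280, 297, 277 and 303 CPM in the Trrap-FBΔ cortices. Mouse 55, the lowest control, fell among the mutants, so that the groups overlapped (exact permutation p = 0.086). The log2 fold change was -0.25 ± 0.073 (edgeR adjusted p = 0.021), and the call was lost without control mouse 63 or 64 or Trrap-FBΔ mouse 57 or 60 (adjusted p = 0.05 to 0.068), so 4 of the 8 libraries each decided it. In the striatum the controls had 258, 211, 253 and 241 CPM and the Trrap-FBΔ mice 177, 172, 164 and 184 CPM. Here the groups were apart, and the log2 fold change was -0.47 ± 0.067 (edgeR adjusted p = 0.00091), or -0.435 without the control striatum of mouse 58, and no library decided the call. The gene Stk16 lies over Tuba4a on the opposite strand and was counted apart from it by strand.

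Tuba8, on chromosome 6 (121210696 to 121226854, plus strand), is a divergent alpha isotype known from muscle, testis and brain. It was thinly counted, with 57 to 292 reads per library. Controls had 2.08, 4.42, 4.08 and 4.03 CPM in the cortex, and the Trrap-FBΔ mice had 5.50, 5.42, 5.72 and 5.67 CPM. The lowest value, 2.08 CPM in mouse 55, stood apart from the other controls, and the log2 fold change of 0.59 ± 0.17 (edgeR adjusted p = 0.021) became 0.42 without that mouse (adjusted p = 0.0061). In the striatum the controls had 3.28, 2.70, 2.74 and 3.18 CPM and the Trrap-FBΔ mice 5.06, 5.68, 4.14 and 5.72 CPM. Every mutant was above every control, with a log2 fold change of 0.79 ± 0.13 (edgeR adjusted p = 0.0016) that was 0.84 without the control striatum of mouse 58.

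Tuba1c, also on chromosome 15 but on the plus strand (99029891 to 99038110), gave 7.65 ± 0.634 CPM in the control cortices (6.98 to 8.30 CPM, SD, n = 4). The Trrap-FBΔ cortices had 4.25, 4.33, 0.81 and 11.6 CPM in mice 57, 59, 60 and 61, on both sides of the controls. The log2 fold change was -0.52 with a 95% interval from -1.56 to 0.52 (edgeR adjusted p = 0.43). Without mouse 61 it was -1.28 with an adjusted p of 0.03, so that 1 library decided whether the gene was called, and without mouse 60 it was -0.17 (0.72). In the striatum the controls had 5.26, 6.33, 7.52 and 1.18 CPM and the Trrap-FBΔ mice 3.98, 4.44, 0.904 and 8.68 CPM. The groups overlapped almost wholly there, with a log2 fold change of -0.16 (95% interval -1.48 to 1.16, edgeR adjusted p = 0.86). Single libraries turned its sign, to 0.18 without mouse 60 and 0.092 without mouse 64, or moved it to -0.72 without mouse 61, -0.50 without mouse 65, -0.11 without mouse 57 and -0.03 without mouse 63, never past the test. Without the control striatum of mouse 58 it was -0.15.

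The lowest and highest values of Tuba1c came from the same mice in both tissues. Mouse 60 had 0.81 CPM in its cortex and 0.904 in its striatum, and mouse 61 had 11.6 and 8.68 CPM. Over the 7 mice with both tissues the highest cortex was 14.3 times the lowest and the highest striatum 9.6 times, whereas the striatum of a mouse held 0.724 to 1.12 times the level of its cortex. Mouse 65, a control with a striatum only, had 1.18 CPM, so low values were seen in both genotypes. The other isotypes spread between mice by 1.17 to 2.48 times (cortex) and 1.13 to 2.12 times (striatum), genotypes pooled. Of the 48 other genes within 1000000 bases of Tuba1c with enough counts, a set looked at after its values had been seen, the one most like it over the 16 libraries had r = 0.60 and the most opposite r = -0.641, and Tuba1a and Tuba1b had r = 0.43 and 0.42.

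**Figure D2:**
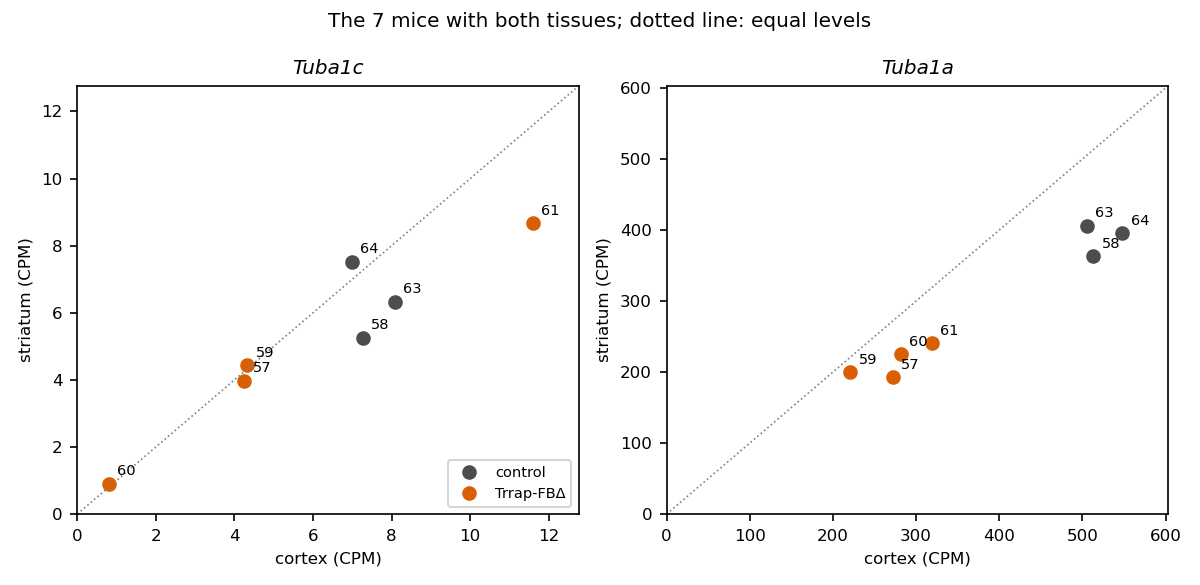
Level in the striatum (y axis, CPM) against that in the cortex (x axis, CPM) of the same mouse for Tuba1c and Tuba1a, with the number of the mouse beside each of the 7 points. Tuba1c runs from 0.81 to 11.6 CPM along the dotted line of equal levels with mice 60 and 61 at its ends, while Tuba1a separates into a control and a Trrap-FBΔ cluster.

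Tubg1, on chromosome 11 (101119938 to 101126419, plus strand), was even across the genotypes. The control cortices had 34.6, 37.6, 41.5 and 40 CPM and the Trrap-FBΔ cortices 35.6, 37.5, 35.5 and 38.7 CPM, all mutants within the range of the controls. The log2 fold change was -0.06 with a 95% interval from -0.20 to 0.08 (edgeR adjusted p = 0.48). The striata had 33.4, 31.4, 35.3 and 33.9 CPM in controls and 33.4, 31.8, 32.0 and 35.4 CPM in Trrap-FBΔ mice, with a log2 fold change of -0.02 (95% interval -0.14 to 0.11, adjusted p = 0.86), which was also -0.02 without the control striatum of mouse 58.

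Tubg2, which lies next to Tubg1 on the same strand (101155907 to 101161787), rose. It was at 34.7, 37.4, 32.3 and 33.5 CPM in the control cortices and 46.6, 49.0, 43.9 and 46.1 CPM in the Trrap-FBΔ cortices. All 4 mutants were above the highest control, with a log2 fold change of 0.43 ± 0.058 (edgeR adjusted p = 3e-04). The control striata had 33.2, 28.8, 30.9 and 31.8 CPM and the Trrap-FBΔ striata 41.9, 39.0, 40.1 and 40.4 CPM. Here too the groups were separate, and the log2 fold change was 0.37 ± 0.056 (edgeR adjusted p = 0.0011), or 0.40 without the control striatum of mouse 58. The 2 gamma genes thus parted within the same libraries, and their ratio is given below.

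**Figure D3:**
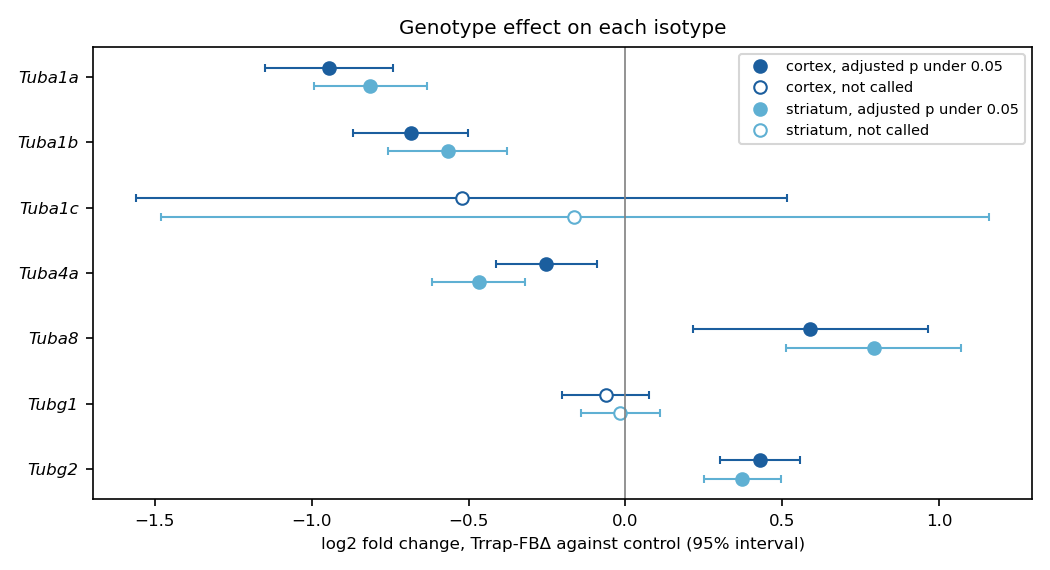
Log2 fold change of each isotype in Trrap-FBΔ against control mice (x axis; bars are 95% intervals from the edgeR fit) for cortex and striatum, with filled points for an adjusted p under 0.05. Tuba1a, Tuba1b and Tuba4a lie to the left of 0 and Tuba8 and Tubg2 to the right in both tissues, and the intervals of Tuba1c and Tubg1 hold 0.

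An interaction term, fitted on the 16 libraries together, asked whether the loss of Trrap acted differently on the 2 tissues. None of the 7 isotypes passed in edgeR (0 at an unadjusted p under 0.05 as well, and 0 in DESeq2), where 0.437% of 19438 genes were called. Tuba4a came nearest, with a striatal effect lower by 0.22 on the log2 scale (95% interval -0.44 to 0.0071, edgeR adjusted p = 0.43). For Tuba1a the difference was 0.13 (interval -0.15 to 0.41), for Tubg2 -0.06 (-0.22 to 0.11) and for Tuba8 0.20 (-0.29 to 0.69). These intervals do not show that the effects were equal, least of all for Tuba8 and Tuba1c, whose interval ran from -1.46 to 2.18. With the mouse as a block, which pairs the tissues of 7 mice, the differences were 0.084 for Tuba1a, -0.14 for Tuba4a and 0.41 for Tuba8, and no isotype was called. Without the control striatum of mouse 58 the differences were 0.12 for Tuba1a, -0.17 for Tuba4a, 0.26 for Tuba8, -0.016 for Tubg2 and 0.39 for Tuba1c, again with no call.

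Between the tissues themselves Tuba1a, Tuba4a, Tubg1 and Tubg2 were lower in the libraries labelled striatum, 4 of 7 isotypes with none higher in either genotype. Among all 19438 genes 44.5% were called in the controls (22% lower) and 52.3% in the Trrap-FBΔ mice (25.9% lower). Of the isotypes called, Tuba4a differed the most, by a log2 fold change of -0.52 ± 0.075 in controls (edgeR adjusted p = 2.9e-05) and -0.73 ± 0.076 in Trrap-FBΔ mice (3.9e-07). Tuba1a differed by -0.48 ± 0.093 (0.00045) and -0.35 ± 0.094 (0.0046). Without the control striatum of mouse 58 the differences in controls were -0.56 for Tuba4a, -0.47 for Tuba1a, -0.20 for Tubg1 and -0.18 for Tubg2. Tuba1c was lower by 0.60 in controls without passing (adjusted p = 0.46), and Tuba1b did not pass in either genotype (0.0044, 95% interval -0.18 to 0.19, in controls). The calls of the gamma genes were near the threshold, with -0.20 ± 0.060 (edgeR adjusted p = 0.013) and -0.15 ± 0.060 (0.041) for Tubg1 and -0.14 ± 0.056 (0.045) and -0.20 ± 0.055 (0.0052) for Tubg2. In controls the call of Tubg2 was lost without any 1 of 6 libraries (adjusted p = 0.051 to 0.16). Tubg1 lost its call in controls without the control cortex of mouse 63 (0.051). In Trrap-FBΔ mice it lost its call without any 1 of 7 (0.051 to 0.095). These fits did not pair the tissues of a mouse. With the mouse as a block the edgeR adjusted p in controls was 0.0056 for Tubg1 and 0.039 for Tubg2. In Trrap-FBΔ mice it was 0.023 and 0.0026. Tuba8 was lower in control striata by 0.32 without passing (adjusted p = 0.15), and passed without the control cortex of mouse 55 (-0.49, adjusted p = 0.0026) or with the mouse as a block (-0.53, adjusted p = 0.0067).

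Levels can be set side by side between genes only per length. By CPM per kb of the union of exons, Tuba1a was the highest in every group, 292 ± 11.4 in the control cortex (SD, n = 4), followed by Tuba4a with 93.0 ± 10.1, Tubg2 with 19.6 ± 1.24, Tubg1 with 17.0 ± 1.34 and Tuba1b with 11.2 ± 0.351. In no group did the ranges of neighbours in this order overlap down to Tuba1b. Tuba1c and Tuba8 came last, at 3.35 ± 0.277 and 1.61 ± 0.469 in the control cortex, and their ranges overlapped in the other 3 groups. The order of the middle genes depended on the length used. With the count of unique 51-base windows as the length, an alternative added after the data had been seen, Tuba1b moved above both gamma genes in every group, and Tubg1 stood above Tubg2 in the controls with overlapping ranges.

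Tuba1a made up 72.8 ± 2.30% of the summed alpha level per exon length in the control cortex and 62.6 ± 3.41% in the Trrap-FBΔ cortex (SD, n = 4). The share of Tuba4a, which fell less, went from 23.2 ± 2.19% to 32.6 ± 3.48%. In the striatum Tuba1a had 72.3 ± 2.35% in controls and 66.8 ± 2.29% in Trrap-FBΔ mice, and Tuba4a 22.6 ± 2.45% and 26.5 ± 1.92%. Per exon length the ranges of the 2 genotypes did not overlap for either gene or tissue. Per unique window the mean shares of Tuba1a were 85.4% and 79.8% (cortex) and 83.8% and 80.5% (striatum), and those of Tuba4a 8.74% and 13.4% (cortex) and 8.42% and 10.3% (striatum). The direction of the means thus held, but their size depended on the length used. Without the control striatum of mouse 58 the control shares per exon length were 73.0% for Tuba1a and 22.0% for Tuba4a. The summed alpha level itself was 401 ± 13.3 in control and 242 ± 25.3 in Trrap-FBΔ cortices, and 289 ± 15.6 and 178 ± 14.8 in the striata. Tuba8 went from 0.556% to 1.65% (cortex) and from 0.634% to 1.93% (striatum) of the Tuba1a level per exon length, and from 0.136% to 0.405% and from 0.156% to 0.473% per unique window. The ratio of Tubg2 to Tubg1 was 1.17 ± 0.146 in control and 1.63 ± 0.0729 in Trrap-FBΔ cortices, and 1.20 ± 0.0655 and 1.58 ± 0.0689 in the striata, per exon length. Per unique window it was 0.931 and 1.30 (cortex) and 0.961 and 1.26 (striatum), so that which gamma gene was the higher in controls depended on the length, while the ratio was higher in Trrap-FBΔ mice by both. Without the control striatum of mouse 58 the control ratio was 1.18 per exon length and 0.938 per unique window. These shares and ratios are described without a test.

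**Figure D4:**
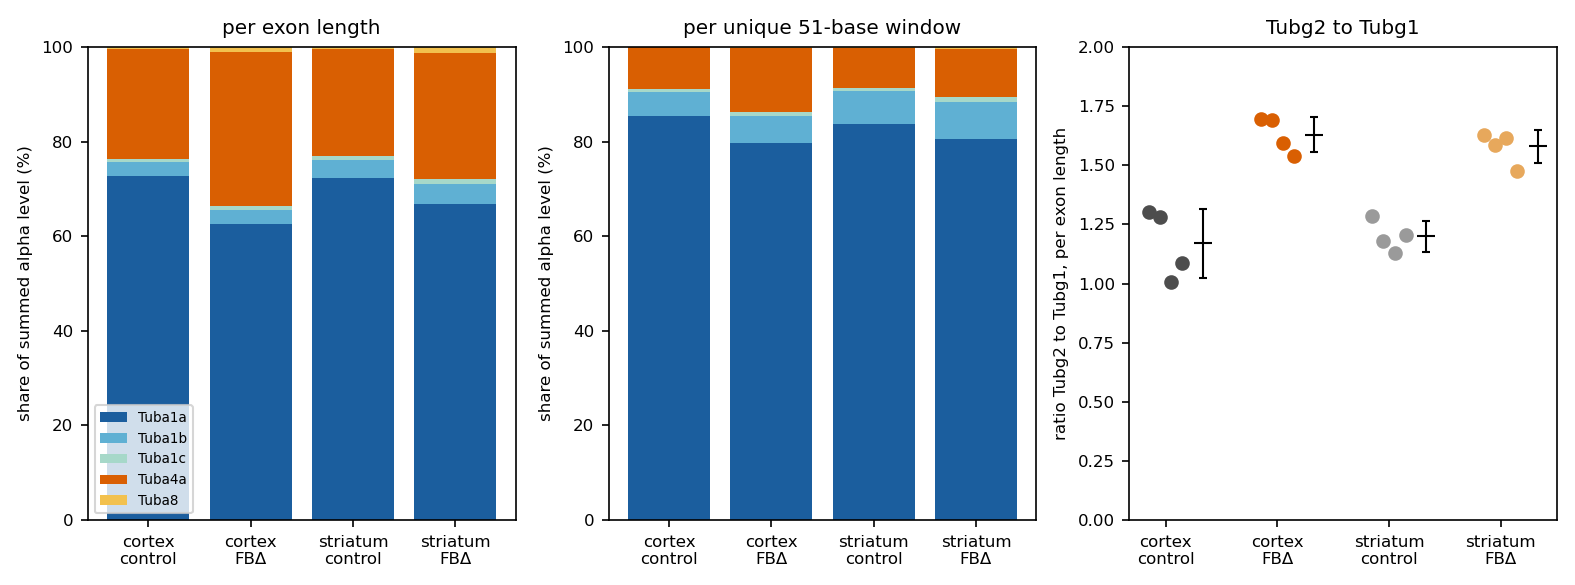
Mean share of each alpha isotype in the summed alpha level (y axis, percent, 4 mice per group) per exon length and per unique 51-base window, and the ratio of Tubg2 to Tubg1 per exon length in each mouse with mean ± SD. The share of Tuba1a is 72.8% in the control and 62.6% in the Trrap-FBΔ cortex in the first panel, and all Trrap-FBΔ ratios of Tubg2 to Tubg1 (1.48 to 1.69) lie above those of the controls (1 to 1.30).

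The promoters of the isotypes were searched for the GC box, to which the factor Sp1, also examined in the study, binds. Windows of RefSeq (GRCm38.p6, from 250 bases before to 50 after the start site) were at hand for 6 of the 7 genes, Tubg1 having no entry. The box GGGCGG, on either strand, occurred 1 time in Tuba1a, 2 times in Tuba1b and 2 times in Tuba4a, and 0 times in Tuba1c, Tuba8 and Tubg2. Of all 32851 promoters 35.7% held at least 1. The 30 bases around each match are shown with the box in capitals, on the strand of the gene.
Tuba1a, chr15:98953547-98953576 (minus strand): aaggagccgcatCCGCCCaagtgccgcagg
Tuba1b, chr15:98934590-98934619 (minus strand): ccggcggcggccCCGCCCcgcgcgcgggcc
Tuba1b, chr15:98934468-98934497 (minus strand): cagcgaccgcgcCCGCCCctccccagctgc
Tuba4a, chr1:75219306-75219335 (minus strand): accaccCCGCCCcatggtGGGCGGgctgag
The 3 genes with a match are the 3 that fell in both tissues, but a link between the box and the falls was not tested. Except for the first of Tuba1b, the stretches shown lie within the GENCODE spans given above for these genes. The windows follow RefSeq start sites, which lie inside those spans for these 3 genes. A match is a description of these letters in this window and not of a bound site, and genes without one were not shown to lack such sites elsewhere.

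Among the 26 genes of the gamma-tubulin ring complex and its recruiters, the cortex had 4 lower and 3 higher and the striatum 5 lower and 3 higher, with medians of -0.031 and -0.036 on the log2 scale. Among all genes 33.3% were called in the cortex and 30.2% in the striatum, so these counts are near the background. The ring subunits Tubgcp2, Tubgcp3, Tubgcp4, Tubgcp5 and Tubgcp6 were not among the calls in either tissue. The largest changes shared by both tissues were those of Tpx2, which activates Aurora A and nucleation at the spindle, and Haus8, an augmin subunit, both lower. Tpx2 went from 10.7 ± 1.04 to 7.38 ± 0.275 CPM in the cortex (log2 fold change -0.54, edgeR adjusted p = 0.00063) and by -0.67 in the striatum, and Haus8 by -0.51 and -0.43. Ninl, a ninein-like centrosomal anchor, rose by 0.41 and 0.32, and Mzt1, a small protein of the ring complex, by 0.38 and 0.24.

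Of 30 genes for the folding of alpha-tubulin and the modification of its tail or of lysine in its lumen-facing loop, 29 were matched. Of those tested, the cortex had 7 of 28 lower and 9 higher and the striatum 6 of 29 lower and 8 higher, with medians of 0.048 and -5.18e-05. These shares, too, are to be read against the 33.3% and 30.2% of all genes called. Ttl, the ligase that adds tyrosine back, went from 192 ± 10.4 to 123 ± 7.20 CPM in the cortex (log2 fold change -0.64, edgeR adjusted p = 2.8e-05) and from 99.9 ± 9.24 to 58.3 ± 3.37 CPM in the striatum (-0.78, adjusted p = 0.00012). Vash1, a carboxypeptidase that removes it, went by -0.56 (adjusted p = 9.1e-05) and -0.59 (adjusted p = 0.00037). Its partner Svbp, named after its values were seen, was not called (0.060, adjusted p = 0.7, and -0.088, adjusted p = 0.5), and its relative Vash2, named likewise, was called in the cortex (-0.38, adjusted p = 0.019) and not in the striatum (-0.175, adjusted p = 0.2). Agbl3, a deglutamylase of the carboxypeptidase family, rose by 0.54 and 0.53 and Ttll13, a polyglutamylase, by 1.17 and 0.73, from 0.647 ± 0.0587 to 1.45 ± 0.185 CPM in the cortex. The 13 other tubulin genes, mostly beta-tubulins, were lower in 7 of 9 tested (cortex) and 6 of 9 (striatum), with none higher, and 4 were not tested for want of counts.

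Markers of some cell types moved with the falls. Of all genes tested, 17.6% were called lower and 15.7% higher in the cortex, and 15.8% and 14.4% in the striatum. The list of immature neurons holds Tubb3, which is also counted among the other tubulins. Of 10 genes of proliferating cells 9 were lower in cortices and 10 in striata, and their sum was 55 to 59.6 CPM in Trrap-FBΔ against 85.5 to 102 in control cortices and 61.9 to 73.9 against 104 to 127 in the striata. Of 10 genes of immature neurons cortices had 7 lower and 1 higher and striata 6 lower (sums of 2550 to 3210 against 4720 to 6070 CPM, and 2490 to 2800 against 3870 to 4370). Oligodendrocyte markers were lower in 6 of 6 (cortex) and 0 of 6 (striatum), those of their precursors in 4 of 4 and 3 of 4, of microglia in 6 of 6 and 5 of 6 and of endothelium in 6 of 6 and 1 of 6. Cortical excitatory markers were lower in 1 of 6 and 4 of 6, striatal projection markers in 1 of 6 and 0 of 6, and astrocyte markers in 2 of 8 and 1 of 8 with 2 higher in each tissue. No choroid plexus (4) or blood (5) marker was called, and no marker was at 0 in any library. The part of these cell types in the levels of the isotypes was not tested.

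Over the 16 libraries the log2 CPM of Tuba1b had r = -0.893 with Tubg2 and -0.735 with Tuba8, and that of Tuba1a had r = -0.651 and -0.64. Tuba4a, which also fell, had r = -0.072 with Tubg2 and -0.111 with Tuba8, and was closer to Tubg1 (0.837) and Tuba1a (0.734). Tubg2 and Tuba8 had r = 0.807. These correlations are descriptive, since all points share the contrast of genotype and tissue. Among 13774 protein-coding genes with at least 50 counts on average, the 3 most like Tuba1a were Gng3 (r = 0.98), a neuronal G protein subunit, Stmn2 (0.979), a stathmin of growing neurites, and Armc6 (0.979). Those most like Tuba1b were Uchl1 (0.973), a neuronal ubiquitin hydrolase, Myl6b (0.969) and Slc25a1 (0.969), the mitochondrial citrate carrier. Tuba4a was nearest to Tmem151a (0.993), Spred2 (0.982), an inhibitor of Ras signalling, and Klf13 (0.976).

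The genes nearest to the isotypes that rose were others. Tuba8 ran with Ctsb (r = 0.934), a lysosomal protease, Nptx2 (0.921), a neuronal pentraxin, and Clcn7 (0.90), a lysosomal chloride transporter. Tubg2 ran with Sdr42e1 (0.959), Bcl2l11 (0.956), a pro-apoptotic BH3 protein, and Mtr (0.952), methionine synthase. Tubg1, whose level followed the tissue more than the genotype, was nearest to Sdk2 (0.938), Smpd1 (0.918) and Lpcat4 (0.918). For Tuba1c the nearest were Abcc3 (0.847), a transporter, Rac2 (0.806), a GTPase of blood cells, and Smdt1 (0.773), a regulator of the mitochondrial calcium uniporter, and Rac2 and Smdt1 are on chromosome 15 as Tuba1c is.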

How the data were processed

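Per the study's methods and the submitters' processing notes, the authors made stranded poly(A) libraries, converted base calls with bcl2fastq 1.8.4, aligned single-end reads of 51 bases to GRCm38 with STAR 2.5.4b, and counted uniquely mapped reads on Ensembl genes by strand with featureCounts 1.5.0. They deposited these counts, raw and unfiltered, and 53706 of 53801 gene identifiers had a symbol in GENCODE M21. Low counts were filtered with filterByExpr, libraries were scaled by TMM and genotypes were compared within each tissue (8 libraries) in edgeR 4.0.16 (quasi-likelihood test, R 4.3.3). The effects of tissue and the interaction came from one fit of all 16 libraries, with Benjamini-Hochberg adjustment over all genes tested and a threshold of 0.05. CPM were scaled over all 16 libraries. The standard error is the log2 fold change over the root of the F statistic.

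For 7 mice both tissues were sequenced, which pairs these libraries by animal. Within such pairs, deviations from group means correlated with r from 0.0415 to 0.285 (median 0.263) over 18770 genes, against -0.247 to 0.147 in 25 pairs of different mice, so the mouse was also used as a block. No library duplicated another of its group (chi-square over degrees of freedom from 8.26 to 44.6 in 24 pairs). Pairs across groups were not compared in this way.

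The members, the gene lists, the tests and the rule for named genes were chosen with earlier results of these data known. Named are the isotypes, the 3 protein-coding genes most like each, and from the gamma-tubulin and alpha-tubulin lists up to 4 genes called in both tissues in one direction, by size; the 5 ring subunits named as not called were picked for their role. On simulated counts with the real library sizes and 200 changed genes, the test recovered 93.8% of changes of 1 on the log2 scale in the cortex (of 18085 genes) and 91.8% in the striatum (of 18670), and 26.5% and 30.7% of changes of 0.5. For the interaction it recovered 58.5% and 4.85% (of 19140 genes). All genes were simulated with one and the same spread and without an effect of the mouse. These rates therefore do not describe isotypes that vary more, such as Tuba1c, or less, such as Tubg1 and Tubg2. The 200 changed genes were also a far smaller share than the 33.3% (cortex) and 30.2% (striatum) called in the data. Sexes were unequal (2 of 4 control cortices, 1 of 4 control striata and 3 of 4 Trrap-FBΔ libraries of each tissue from females), and sex was tried as a covariate. The other alternatives were RLE and upper-quartile scaling, DESeq2 1.42.0, other filters, one fit for both tissues and each library left out. The coding ends of the alpha isotypes are not reported here.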

Additional observations from a re-analysis of the deposited data

Results flagged for a closer look

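The values of the 7 isotypes in the 4 groups of 4 mice, 28 combinations, were each searched for a mouse far from the other 3, as the gap to its nearest neighbour over the range of the group. Dixon's 95% critical value for 4 values was passed in 2 combinations, and chance alone passes it in about 1 of 20. Tuba1b in the Trrap-FBΔ striatum had a ratio of 0.933, because mouse 61 was at 16.8 CPM while the other 3 mice were at 13.2 to 13.5 CPM. Without mouse 61 the log2 fold change of Tuba1b in the striatum was -0.66 in place of -0.57. Tuba8 in the control cortex had a ratio of 0.832, because mouse 55 was at 2.08 CPM and the other 3 at 4.03 to 4.42 CPM. Without mouse 55 the log2 fold change of Tuba8 in the cortex was 0.42 in place of 0.59, and it was called in both cases.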

How the results depend on the processing

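The 3 lower and 2 higher isotypes of the striatum were counted as 3 and 2 under all 7 alternatives and with each of 8 libraries left out, and those of the cortex under all 7 alternatives. With one library left out the cortex had 2 higher and 2 to 4 lower. The genes called ranged from 4734 to 5726 in the cortex and from 4205 to 5769 in the striatum with a library left out, and from 5349 to 6221 and 4312 to 6326 under the alternatives. With sex as a covariate Tuba1a was at -0.94 and -0.83, Tubg2 at 0.43 and 0.41, and Tuba1c at -0.95 (adjusted p = 0.16) and -1.05 (0.32). The interaction called 85 genes, but 219 with the mouse as a replicate block, 195 without a filter and 415 in DESeq2, and 18 to 151 with one library left out. It moved by over 1.5 times, to fewer genes, without the Trrap-FBΔ cortex of mouse 57, 59 or 60, the control cortex of 55 or 58, the Trrap-FBΔ striatum of 57, 59 or 61 or the control striatum of 63, and to more without that of 65. It called 0 isotypes in every case. The cause was not tested. Between tissues, dropping the filter ended the calls of Tubg2 in controls (adjusted p = 0.14) and of Tubg1 in Trrap-FBΔ mice (0.13), and the block added Tuba8 in controls. The block changed no other call of an isotype. No paired fit was possible for the genotype effect, as no mouse has both genotypes. Unique windows over the genome were not run, as no genome sequence was used here, and windows unique among transcripts took their place. Tuba8, with 57 to 292 reads per library, and the low libraries of Tuba1c, with 31 to 52, limit what the depth can show.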
